A study of Mus musculus with 2 samples.

Results

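Abcd4, Irak1bp1, Kcnj14, Snhg3, Gm10800, Gm10801 and Gm10260 are 7 autosomal genes out of 25778 counted in single cells of the mouse retina. They were chosen by the sign of the ratio between a Ptbp1-KO and a Ptbp1-Ctrl library, which was the same in rods, cones, bipolar (BC) and amacrine cells (AC) and Müller glia (MG). The ratios are therefore a description of these genes, without a test. Abcd4, Gm10800 and Gm10801 were higher in the Ptbp1-KO library in all 5 types, and Irak1bp1, Kcnj14, Snhg3 and Gm10260 were lower. The median over the types ranged from 0.431 times the Ptbp1-Ctrl level for Irak1bp1 to 2.33 times for Abcd4. A further 1558 genes also had a single sign in the 5 types.

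Whole retina at 30 days of age was dissociated with papain. One library came from a mouse with Chx10-Cre and intact Ptbp1 (Ptbp1-Ctrl, 16421 cells) and the other from a Chx10-Cre;Ptbp1lox/lox mouse (Ptbp1-KO, 14522 cells). The Chx10-Cre transgene, carried by both animals, drives Cre recombinase in retinal progenitors, and in the second animal it removes the promoter and first exon of Ptbp1 in cells descending from them. With 1 mouse and 1 library per genotype, the effects of genotype, animal, dissociation and library cannot be told apart.

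ABCD4 is an ABC transporter of the lysosomal membrane that works with LMBD1 (Lmbrd1) to release vitamin B12 into the cytosol. IRAK1BP1 binds IRAK1, a kinase that relays Toll-like and interleukin receptor signals towards NF-kappaB. Kcnj14 encodes the inward rectifier potassium channel Kir2.4. Snhg3 is a spliced noncoding transcript that carries the small nucleolar RNAs Snora73a and Snora73b in its introns. Gm10260 is a single-exon copy of Rps18, the gene of a protein of the small ribosomal subunit. Gm10800 and Gm10801 are gene models on a repeat related to the major satellite, the tandem repeat of mouse pericentromeric heterochromatin.

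The genes lie on 6 chromosomes of GRCm38 (GENCODE M21), and Ptbp1 is on another, chromosome 10. Abcd4 is at chr12:84601464-84617413 (minus strand), Irak1bp1 at chr9:82829540-82847687 (plus strand) and Kcnj14 at chr7:45816460-45824782 (minus strand). Snhg3 is at chr4:132348014-132353686 and Gm10260 at chr13:97760072-97760632, both on the minus strand. Gm10801 (chr2:98662237-98664083, plus strand) and Gm10800 (chr2:98666547-98667301, minus strand) are 2464 bp apart.

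For 3 of the genes another gene of the count table has nearly the same letters, which bears on what their counts can show. The first pair gives the last 133 coding bases of Gm10260 (chr13:97760130-97760262, minus strand) and the matching stretch of Rps18, which spans exon 4 (chr17:33952221-33952277) and exon 5 (chr17:33952043-33952118) on the minus strand. Capitals mark the bases that differ.
Gm10260: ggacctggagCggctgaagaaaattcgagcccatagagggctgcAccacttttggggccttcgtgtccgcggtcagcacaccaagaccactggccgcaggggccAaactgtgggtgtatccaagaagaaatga
Rps18: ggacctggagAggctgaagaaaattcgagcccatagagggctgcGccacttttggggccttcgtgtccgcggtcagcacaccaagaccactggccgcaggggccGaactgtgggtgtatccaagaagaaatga
The differences are C381A, A415G and A475G, with the Gm10260 base first, the position counted from 1 at the 5′ end of the Gm10260 transcript, and the Rps18 base last. Of the 459 coding bases, 4 differ (99.13% identical), the other one being C230T. Outside the coding part the transcripts differ at G1T, C521G and G547A. The alignment covers 547 bases, and within it a read that meets none of these 7 positions has the same letters in both genes.

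The second pair gives the end of Gm10800 (exon 5, chr2:98666549-98666650, minus strand) and the start of Gm10801 (exon 1, chr2:98662237-98662338, plus strand), again with differing bases in capitals.
Gm10800: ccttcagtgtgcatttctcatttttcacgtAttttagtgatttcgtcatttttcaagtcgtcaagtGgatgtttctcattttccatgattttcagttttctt
Gm10801: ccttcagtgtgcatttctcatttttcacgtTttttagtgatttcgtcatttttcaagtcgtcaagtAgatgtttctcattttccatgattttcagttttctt
These stretches are 98.04% identical and differ at A587T and G623A, counted from the 5′ end of the Gm10800 transcript. In all, 11 annotated genes matched Gm10800 on the same strand with at least 85% identity over at least 300 bases, and all 11 were in the count table. Gm10260 had 16 such copies, of which Rps18 and Gm11361 were in the table. The levels of Gm10260, Gm10800 and Gm10801 are for that reason uncertain as levels of single genes.

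Kcnj14 had 1 such copy, the processed pseudogene Gm5522 (99.1% identical over 1242 bases), for which the table had no row. Abcd4, Irak1bp1 and Snhg3 had none on the same strand. Snhg3 overlaps Rcc1 on the same strand and Gm17300 on the other, and Gm10260 overlaps Gm26619 on the other strand. Whether strand was used in counting is not stated.

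The deposited cell types matched their markers, each marker being highest in the type of its list except for 1 of 6 AC markers. Retinal ganglion cells (RGC, 124 and 97 cells) and horizontal cells (HC, 17 and 7 cells) were few. Ptbp1 was at 825 and 14 UMIs (unique molecular identifiers, which count captured transcripts) in the Ptbp1-Ctrl and Ptbp1-KO libraries. Total UMIs were 32758836 and 35328593, and 63 cell barcodes occurred in both libraries. The methods name female mice, whereas Uty, a Y gene, had 188 and 201 CPM (UMIs of the gene per 1000000 UMIs) and Xist 5 and 6 UMIs. Haemoglobin markers of erythrocytes were at 27.7 and 108 CPM, a difference whose part in the results was not tested. Gnat1, the alpha subunit of rod transducin, reached 15.2 to 28.5% of its rod level in cones, BC, AC and MG, so RNA typical of rods was counted in the other types.

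Levels are given as CPM over the summed UMIs of a type and library, with 95% exact Poisson intervals. Ratios are Ptbp1-KO over Ptbp1-Ctrl on the log2 scale, with exact conditional binomial intervals. All intervals cover counting error and not the difference between animals. The 7 genes passed the minimum of 50 UMIs in each of the 5 types, as did 7651 genes in all. Of these 20.5% had one sign throughout (9.2% higher, 11.3% lower), and 0.366% had a ratio of 0.5 or more in size in one direction in every type (0.144% higher, 0.222% lower). Among the members 6 did so, and Gm10801 did not because of its ratio of 0.48 in AC. Taken type by type, all 3 higher members reached 0.5 except in AC, where 2 did, and all 4 lower members reached −0.5. The same bounds were passed upward by 11.5% of genes in rods, 6.51% in cones, 4.99% in BC, 5.5% in AC and 6.36% in MG, and downward by 1.88%, 4.96%, 3%, 4.36% and 4.6%. Since the rule used this contrast, nothing is read from the members' counts.

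**Figure D1:**
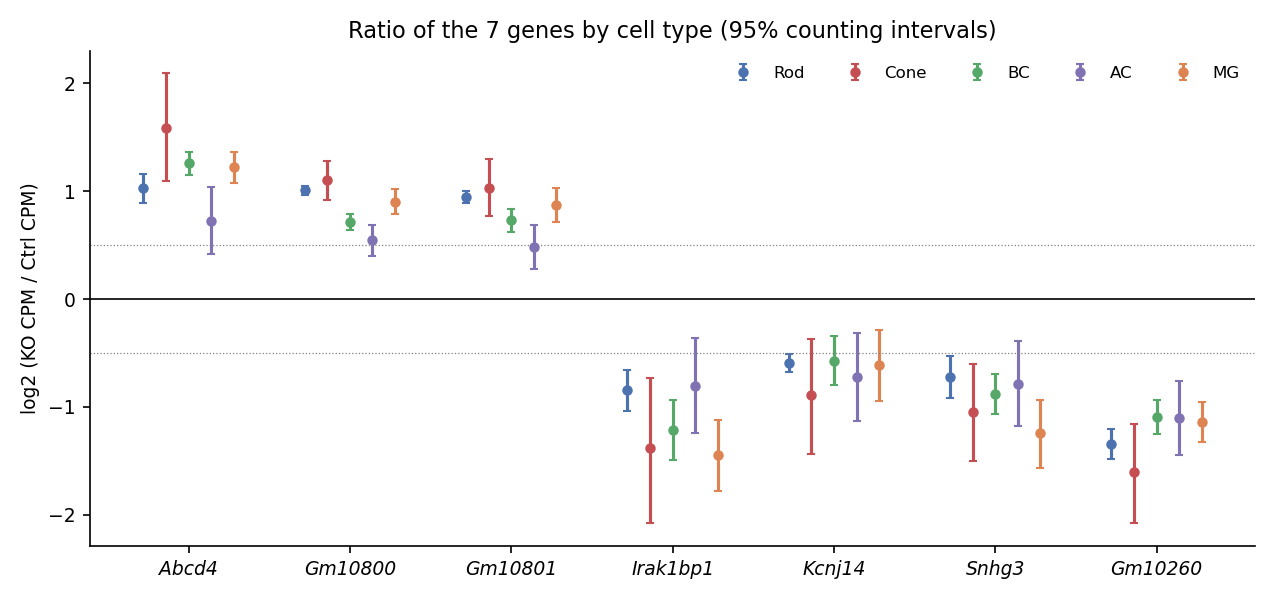
Log2 ratio of Ptbp1-KO over Ptbp1-Ctrl CPM (vertical axis) of the 7 genes (horizontal axis) in rods, cones, BC, AC and MG (coloured points), with 95% counting intervals and dotted lines at 0.5 and −0.5. All 35 intervals lie on one side of 0, and the point nearest to 0 is Gm10801 in AC at 0.48.

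Abcd4, the lysosomal transporter, was higher in Ptbp1-KO in all 5 types. BC held 103 CPM (96.7 to 109.5) in Ptbp1-Ctrl and 247 CPM (237 to 257) in Ptbp1-KO, on 1008 and 2526 UMIs, which is a ratio of 1.26 (1.15 to 1.37). MG held 98.4 and 229 CPM, with a ratio of 1.22 (1.08 to 1.37). Levels and intervals of the libraries did not overlap in any type. Rods held 52.5 and 107 CPM (ratio 1.03, 0.89 to 1.16), cones 28.1 and 84.2 CPM (1.58, 1.09 to 2.09) and AC 57.2 and 94.6 CPM (0.72, 0.42 to 1.04). After subtraction of RNA shared by all cells, scaled on rod RNA found outside rods, the ratio in AC was 0.28 and cones gave no value.

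BC and MG had the highest Abcd4 levels of the 5 types in both libraries and overlapped each other, while cones had the lowest. AC and rods overlapped in Ptbp1-Ctrl, as did rods and AC, and AC and cones, in Ptbp1-KO. Cells with an Abcd4 UMI made up 25.2% of BC in Ptbp1-Ctrl and 52.02% in Ptbp1-KO, at median depths of 2777 and 3818 UMIs per cell. With each cell thinned to 1000 UMIs, and 125 and 42 shallower BC left out, the shares were 10.5% (9.40 to 11.6) and 22.9% (21.3 to 24.6). Cones, the lowest type, had 3.57% and 8% after thinning, at median depths of 2659.5 and 3179 UMIs. The higher level was spread over many cells, and no BC held more than 5 Abcd4 UMIs in Ptbp1-Ctrl or 9 in Ptbp1-KO.

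Of the genes around Abcd4, Lin52, a subunit of the DREAM complex 55319 bp away, had 0.46 in BC and −0.07 in rods. On the other side Npc2, a lysosomal cholesterol carrier, had 0.11 in BC and −0.13 in MG. None of the neighbours of Abcd4 passed 0.5 in all 5 types.

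Of 14 listed genes of vitamin B12 handling and the ABCD family, 13 were in the table, 7 had enough UMIs in all 5 types, and none of these passed 0.5 throughout in either direction. The list had a median of 0.08 in BC, beside 0.01 over all genes, of 0.06 in rods, beside 0.07, of 0.04 in AC and of 0.07 in MG. In cones the median was −0.29 over 9 genes, beside −0.01, with 3 of the 9 past −0.5 and 1 past 0.5. Lmbrd1, the partner of ABCD4, had −0.47 in cones (−0.82 to −0.12), the opposite sign to Abcd4. In the other 4 types its intervals included 0, with values from −0.06 in BC (−0.18 to 0.07) to 0.15 in AC (−0.10 to 0.41). Abcd3, a peroxisomal member of the family, had 0.32 in BC (0.12 to 0.52) and 0.27 in MG (0.10 to 0.44).

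Irak1bp1, which encodes the IRAK1-binding protein, was lower in Ptbp1-KO in all 5 types. MG held 55.03 CPM (49.2 to 61.3) and 20.3 CPM (16.5 to 24.6), on 325 and 103 UMIs, a ratio of −1.44 (−1.78 to −1.12). BC held 35.5 and 15.3 CPM (−1.21, −1.49 to −0.94), and rods 45.9 and 25.6 CPM (−0.84, −1.03 to −0.65). The ratio was nearest to 0 in AC (43.4 and 24.9 CPM, −0.80, −1.24 to −0.37), whose interval overlapped that of MG. Cones, with 83 and 26 UMIs, held 47.6 and 18.2 CPM (−1.38, −2.08 to −0.73).

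In Ptbp1-Ctrl the order of Irak1bp1 levels was MG, cones, rods, AC and BC, and each type overlapped the next, while MG and BC (31.9 to 39.5 CPM) were apart. In Ptbp1-KO the order was rods, AC, MG, cones and BC, again with each overlapping the next, and rods (23.1 to 28.3 CPM) and BC (13.03 to 17.9 CPM) were apart. Phip, 18472 bp away, had ratios between −0.22 and 0.02 in the 5 types. Of 16 genes of IRAK and Toll-like receptor signalling, 5 had enough UMIs in all 5 types and none passed 0.5 throughout. The median of the list ranged from −0.01 in rods to 0.17 in MG.

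Kcnj14, the Kir2.4 channel gene, was highest in rods among the 5 types. Rods held 222 CPM (214 to 230.4) in Ptbp1-Ctrl and 147 CPM (141 to 154) in Ptbp1-KO, on 2896 and 2134 UMIs, a ratio of −0.59 (−0.67 to −0.51). Cones held 57.3 and 30.9 CPM (−0.89, −1.44 to −0.37) and BC 39.3 and 26.5 CPM (−0.57, −0.80 to −0.34). AC held 48.05 and 29.03 CPM (−0.73, −1.14 to −0.32) and MG 37.3 and 24.4 CPM (−0.61, −0.94 to −0.29). Rods stood apart from these 4 types in both libraries, and neighbours in the order among the 4 overlapped.

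Outside rods, Kcnj14 stood at shares of its rod level close to those of Gnat1. It reached 25.8% of its rod level in cones, 17.7% in BC, 21.6% in AC and 16.8% in MG of Ptbp1-Ctrl, and Gnat1 reached 25.2%, 15.4%, 17.5% and 16.6%. In Ptbp1-KO the shares were 20.96%, 18.0%, 19.7% and 16.6% for Kcnj14 and 28.5%, 15.2%, 19.2% and 15.3% for Gnat1. Pde6g, a phosphodiesterase subunit of rods, reached 15.9 to 19.1% in BC, AC and MG, and 67.0% and 69.8% in cones. The values in these 4 types are therefore near background and are not read as expression there. With the shared RNA subtracted as above, the ratio was −0.28 in BC, −1.97 in AC and 1.84 in MG, and cones gave no value.

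Over the 21 deposited clusters, the profiles most like that of Kcnj14 were those of Slc24a1, Gnat1 and Nrl, with mean Pearson correlations of 0.97, 0.96 and 0.95. These were computed on log2(CPM + 1) within each library, and the clusters share a library and differ in depth. All 3 are rod genes. In rods Slc24a1, a cation exchanger, had a ratio of −0.22, Gnat1 0.01, and Nrl, the rod transcription factor, −0.32. The paper instead reports a modest, significant increase of Nrl in rods, from log-normalised values of single cells. The reason for this difference was not tested.

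Cyth2, 1879 bp from Kcnj14 and an exchange factor for ARF proteins, had ratios below 0 in the 5 types, from −0.52 in rods to −0.10 in AC. Grwd1, 441 bp away on the other side, had 131 and 109 UMIs in all and a ratio of −0.37 whose interval reached 0. None of 14 other inward rectifier genes had 50 UMIs in each of the 5 types. In rods 4 of them had, and 2 of these were above 0.5, beside 11.5% of all genes. These were Kcnj6 at 1.19 (0.35 to 2.09, 17 and 43 UMIs) and Kcnj9 at 0.81 (−0.00215 to 1.67, 20 and 39 UMIs). Both were low in rods. Kcnj6 held 1.30 and 2.97 CPM there against 193 and 201 CPM in AC. Kcnj9 held 1.53 and 2.69 CPM there against 93.5 and 115 CPM in BC.

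Snhg3, the snoRNA host gene, was lower in all 5 types. BC held 68.5 CPM (63.5 to 73.9) and 37.3 CPM (33.7 to 41.2), on 671 and 382 UMIs, a ratio of −0.88 (−1.06 to −0.69). MG had the ratio farthest from 0, with 54.5 and 23.01 CPM (−1.24, −1.56 to −0.94), and rods the nearest, with 40.04 and 24.3 CPM (−0.72, −0.92 to −0.52). Cones held 85.4 and 41.4 CPM (−1.04, −1.51 to −0.60) and AC 52.6 and 30.6 CPM (−0.78, −1.18 to −0.39). Cones and BC had the highest levels of the 5 types in both libraries and overlapped each other.

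Rcc1, the exchange factor of the GTPase Ran that overlaps Snhg3 on the same strand, had a ratio of 0.40 over all cells (0.15 to 0.65, 229 and 325 UMIs). Reads of the shared interval may have been counted for either gene. Snhg12, another snoRNA host 36990 bp away, had −0.20 over all cells. Of 16 other snoRNA host genes, 12 had enough UMIs in all 5 types, 2 were below 0 and 1 above 0 throughout, and none passed 0.5 throughout. Their median ranged from −0.09 in BC to 0.07 in rods.

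In the types given first here, the lower members were found in fewer cells of Ptbp1-KO, although its cells were deeper. These shares come from the same UMIs as the ratios and are no separate support. An Irak1bp1 UMI was found in 16.5% and 8.19% of MG, and after thinning to 1000 UMIs in 5.53% (4.48 to 6.74) and 2.56% (1.73 to 3.63). A Kcnj14 UMI was found in 21.7% and 17.2% of rods, after thinning in 20.4% (19.4 to 21.5) and 13.2% (12.3 to 14.03). In MG, whose Kcnj14 level is near that of rod RNA, the thinned shares were 3.07% and 2.73%. For Snhg3 the shares of BC were 18.3% and 13.8%, after thinning 6.97% (6.10 to 7.93) and 3.15% (2.50 to 3.91). For Gm10260, described next, the shares of rods were 12.1% and 6.07%, after thinning 11.1% (10.4 to 11.98) and 3.79% (3.33 to 4.30). In AC the intervals of the unthinned shares overlapped for Irak1bp1 (10.9% and 8.99%) and Snhg3 (12.7% and 11.6%). In the few RGC, Snhg3 was in 5.65% and 8.25% of cells and Kcnj14 in 11.3% and 19.6%. Irak1bp1 (2.42% and 2.06%) and Gm10260 (13.7% and 4.12%) were lower in Ptbp1-KO there. Median depths were 1088 and 1288 UMIs in rods, 2777 and 3818 in BC, 2600.5 and 3928 in AC, and 3333 and 4178 in MG.

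**Figure D2:**
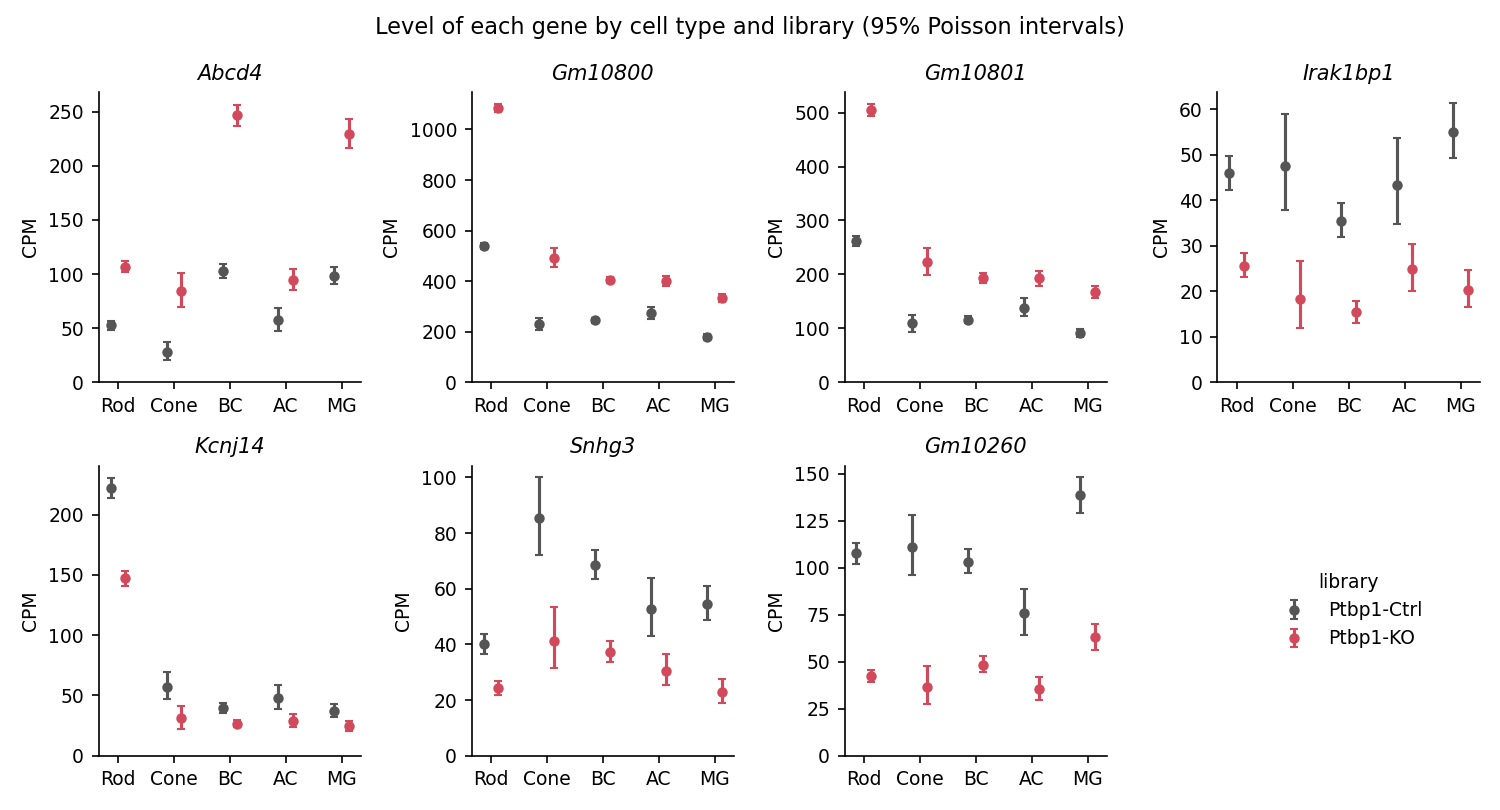
CPM (vertical axes, from 0) of each of the 7 genes in rods, cones, BC, AC and MG of the Ptbp1-Ctrl (grey) and Ptbp1-KO (red) libraries, with 95% Poisson intervals. Kcnj14, Gm10800 and Gm10801 are highest in rods, Abcd4 is highest in BC and MG, and the intervals of the libraries are apart in every panel and type.

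Gm10260, the copy of Rps18, was lower in all 5 types. Rods held 108 CPM (102.05 to 113) and 42.3 CPM (39.01 to 45.8), on 1403 and 613 UMIs, a ratio of −1.35 (−1.49 to −1.21). Cones held 111 and 36.5 CPM (−1.61, −2.08 to −1.16), BC 103 and 48.4 CPM (−1.09, −1.25 to −0.94) and AC 75.7 and 35.3 CPM (−1.10, −1.45 to −0.76). MG, with 138.5 and 62.9 CPM (−1.14, −1.33 to −0.95), had the highest level in both libraries, apart from the next type. AC had the lowest of the 5, overlapping cones in Ptbp1-KO.

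Rps18 itself, whose sequence is set beside that of Gm10260 above, was higher in Ptbp1-KO in every type. It held 235 and 298 CPM in rods (0.34, 0.28 to 0.41), 227 and 333 CPM in cones (0.55, 0.36 to 0.75) and 212 and 310.1 CPM in BC (0.55, 0.47 to 0.63). AC held 174 and 242 CPM (0.48, 0.29 to 0.66) and MG 299 and 405 CPM (0.44, 0.34 to 0.53). In rods both genes together held 343 CPM (333 to 353) and 341 CPM (331 to 350.4), a ratio of −0.01 (−0.07 to 0.05). For the sum the ratio was 0.13 in cones (−0.05 to 0.30), 0.18 in BC (0.12 to 0.25), 0.15 in AC (−0.01 to 0.31) and 0.10 in MG (0.01 to 0.18). In each type the sum differed less between the libraries than either gene.

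Gm10260 held 31.4% (30.02 to 32.8, Clopper-Pearson) of the UMIs of both genes in rods of Ptbp1-Ctrl and 12.4% (11.5 to 13.4) in rods of Ptbp1-KO. Over the 5 types the share lay between 30.3 and 32.8% in Ptbp1-Ctrl and between 9.87 and 13.5% in Ptbp1-KO. The libraries were apart in every type. Gm11361, a further copy on chromosome 13 (98.7% identical to Gm10260 over 540 bases), had 551 and 270 UMIs over all cells (−1.14, −1.35 to −0.93). In profile over the 21 clusters Gm10260 was most like the ribosomal protein genes Rpl11, Rps18 and Rps9 (0.94 each), whose ratios in rods were −0.43, 0.34 and −0.39.

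**Figure D3:**
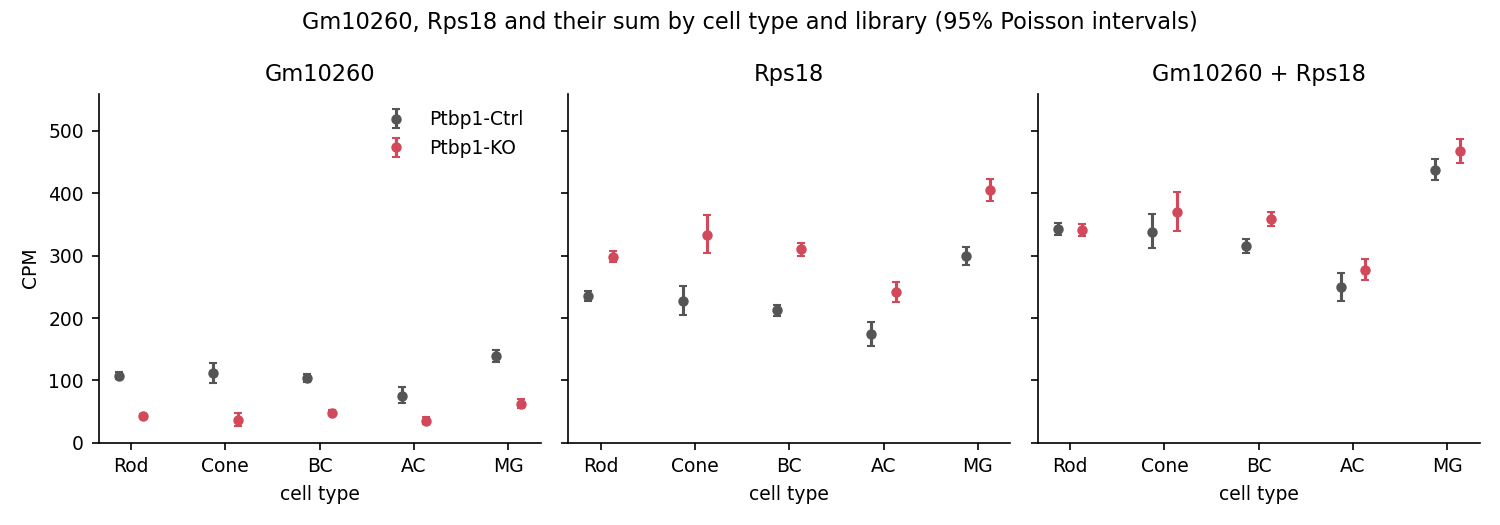
CPM (shared vertical axis, from 0) of Gm10260, of Rps18 and of their sum in rods, cones, BC, AC and MG of the Ptbp1-Ctrl (grey) and Ptbp1-KO (red) libraries, with 95% Poisson intervals. Gm10260 is lower and Rps18 higher in Ptbp1-KO in every type, and in rods the sum is 343 and 341 CPM.

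Gm10800 and Gm10801, the satellite-like gene models, were both higher in all 5 types. In rods Gm10800 held 539 CPM (526 to 551) and 1084.5 CPM (1068 to 1102), on 7022 and 15719 UMIs, a ratio of 1.01 (0.97 to 1.05). Gm10801 held 262 and 505 CPM there, a ratio of 0.95 (0.887 to 1.004). Gm10800 and Gm10801 had ratios of 1.10 and 1.03 in cones, 0.72 and 0.73 in BC, 0.55 and 0.48 in AC, and 0.90 and 0.87 in MG. The intervals of both genes overlapped in each type. With the shared RNA subtracted the ratios in AC were 0.10 and 0.05.

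The UMIs of Gm10800 stood in a nearly constant proportion to those of Gm10801. It was 2.05 (1.97 to 2.14) in rods of Ptbp1-Ctrl and 2.15 (2.09 to 2.21) in rods of Ptbp1-KO, and between 1.94 and 2.21 in the other 4 types. Over the 21 clusters the profiles of both genes correlated at 0.99 in each library. Next in likeness came Gm21738 (0.98) and Gm10719 (0.96), which hold copies of the same repeat.

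The 10 copies of Gm10800 other than Gm10801, summed, held 136 and 285 CPM in rods (1.07, 0.99 to 1.15). Their ratio was 1.20 in cones (0.83 to 1.59), 0.78 in BC (0.63 to 0.92), 0.46 in AC (0.18 to 0.75) and 0.98 in MG (0.76 to 1.21). Each was higher over all cells in Ptbp1-KO, and 1 of them, Gm17535 with 31 and 52 UMIs, had an interval that included 0. Gm21738, on chromosome 14, had 652 and 1583 UMIs (1.17, 1.04 to 1.30). How reads were shared among these genes was not tested.

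Counted per cell, the mean of Gm10800 differed little between the 5 types, but clusters within a type differed more. Ptbp1-Ctrl cells held from 0.610 (MG) to 0.791 (AC) Gm10800 UMIs per cell over the 5 types, and Ptbp1-KO cells from 1.43 (MG) to 1.69 (rods). The highest type was 1.30 times the lowest in Ptbp1-Ctrl and 1.18 times in Ptbp1-KO. For Abcd4 the same quotient was 4.97 and 5.95, and for Kcnj14 2.39 and 2.29. Within BC of Ptbp1-Ctrl, cluster 10 held 688 Gm10800 UMIs in 362 cells and cluster 21 held 48 in 118 cells. The same clusters of Ptbp1-KO held 907 in 311 cells and 68 in 81 cells. Median totals were 1088 UMIs in rods and 3333 in MG of Ptbp1-Ctrl, so that the high CPM of Gm10800 in rods went with small totals.

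Rods of different totals were also compared. In Ptbp1-Ctrl, rods with under 1000 UMIs held 0.743 Gm10800 UMIs each (0.717 to 0.770), those with 1000 to 2000 held 0.676, those with 2000 to 4000 held 0.656, and the 105 rods with 4000 or more held 0.343 (0.240 to 0.475). In Ptbp1-KO the values were 1.70, 1.74, 1.63 and 1.21, each above that of Ptbp1-Ctrl with intervals apart. Over the same bands Gm10260 in Ptbp1-Ctrl had 0.0597, 0.158, 0.309 and 0.829 UMIs per rod. In both libraries the highest band was below the other 3 for Gm10800, with intervals apart, and the middle bands of Ptbp1-Ctrl and the lowest 2 of Ptbp1-KO overlapped. Gm10260 in Ptbp1-Ctrl was higher in each band than in the one before. In MG the exception was the band under 1000 UMIs, where 57 and 11 cells held 1.23 (0.957 to 1.55) and 0.909 (0.436 to 1.67) Gm10800 UMIs each.

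A Gm10800 UMI was found in 44.02% of Ptbp1-Ctrl cells and 74.4% of Ptbp1-KO cells, at median depths of 1442 and 1740 UMIs. Thinned to 1000 UMIs, with 4479 and 3272 shallower cells left out, the shares were 26.6% (25.8 to 27.4) and 47.04% (46.1 to 48.0). MG, the lowest of the 5 types, had 15.7% and 28.3% after thinning, at median depths of 3333 and 4178 UMIs. Its UMIs were thus counted in each of the 5 types, and the part of RNA shared by all cells in these shares was not tested. The cell with most Gm10800 UMIs held 63 in one library and 64 in the other. With cells thinned to 1000 UMIs, both genes were found in 710 Ptbp1-Ctrl and 1923 Ptbp1-KO cells, where 481 and 1456 would hold both if each fell on cells independently of the other. Without thinning, the numbers were 2121 against 1849 and 5464 against 5244. These numbers pool types with different shares, which can raise the excess. Within thinned rods they were 479 against 389 and 1423 against 1269, and within thinned MG 49 against 26.4 and 94 against 53.8.

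**Figure D4:**
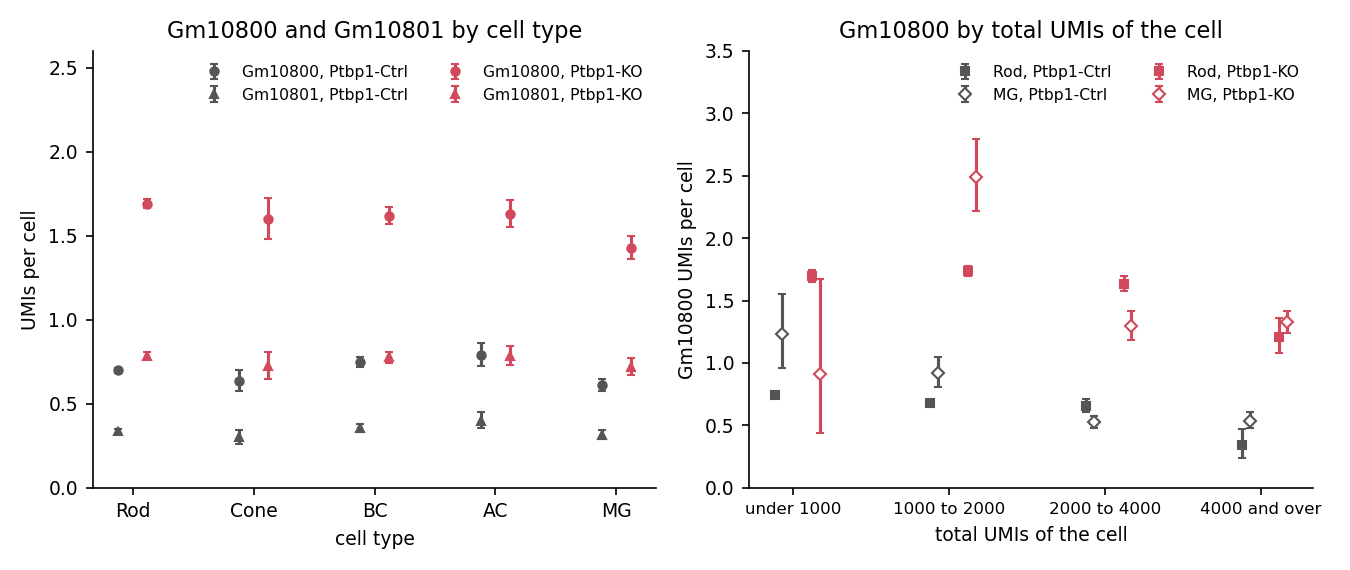
UMIs per cell (vertical axes, from 0, with 95% Poisson intervals) of Gm10800 (circles) and Gm10801 (triangles) by cell type (left), and of Gm10800 in rods (squares) and MG (open diamonds) by the total UMIs of the cell (right), in Ptbp1-Ctrl (grey) and Ptbp1-KO (red). Ptbp1-KO lies above Ptbp1-Ctrl in every type and in every band of rods, where Ptbp1-Ctrl values run from 0.743 in the lowest band to 0.343 in the highest.

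Within types, the 21 deposited clusters were compared where a gene had at least 20 UMIs. Abcd4, Gm10800 and Gm10801 were higher in Ptbp1-KO in 21 of 21 clusters, with intervals above 0 in 19, 20 and 18 of them. Gm10260 was lower in 20 of 20 with every interval below 0, and Snhg3 in 19 of 19 with 14 below 0. Irak1bp1 was lower in 18 of 19, with 16 intervals below 0 and an AC cluster at 0.17 (−0.78 to 1.17) as the exception. Kcnj14 was lower in 18 of 21, with 14 intervals below 0. Its exceptions were an AC cluster at 0.03, an MG cluster at 0.17 and a BC cluster at 0.45, and their intervals included 0. Outside rods the Kcnj14 values are near background, as described above. The ratios nearest to 0 among the higher genes were 0.18 for Abcd4 in a BC cluster and 0.10 for Gm10800 and 0.17 for Gm10801 in an AC cluster, and these 3 intervals included 0. Clusters of a library come from 1 animal and are no replicates. They split the cells whose ratios chose the genes, so their agreement in sign is no separate support. The share of all genes that agree in this way over clusters is not given here.

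**Figure D5:**
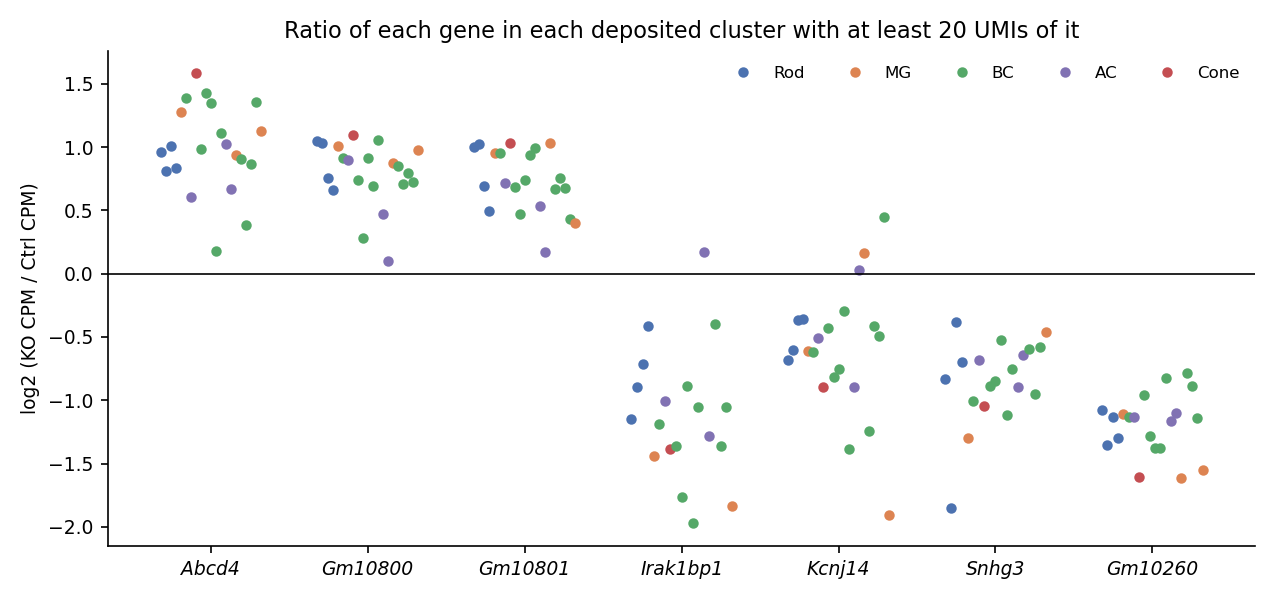
Log2 ratio of Ptbp1-KO over Ptbp1-Ctrl CPM (vertical axis) in each deposited cluster with at least 20 UMIs of the gene (points, coloured by the main cell type of the cluster) for the 7 genes (horizontal axis). Abcd4, Gm10800, Gm10801, Snhg3 and Gm10260 each lie on one side of 0, while 1 point of Irak1bp1 and 3 points of Kcnj14 lie on the other side from the rest.

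RGC and HC were not used to choose the genes, and their counts were low. In RGC Gm10800 had 56 and 157 UMIs (1.70, 1.25 to 2.17), Gm10801 30 and 68 (1.40, 0.76 to 2.07) and Gm10260 22 and 6 (−1.66, −3.25 to −0.31). Kcnj14 had 16 and 28 UMIs there (1.02, 0.09 to 2.01), the sign opposite to the 5 types that chose it. Abcd4 had 12 and 13 UMIs (0.33, −0.92 to 1.59), Snhg3 8 and 8, and Irak1bp1 5 and 2, and at this depth no difference was detectable. In HC each member had at most 10 UMIs per library, and no difference was detectable.

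Of the 3 nearest counted genes on each side of the members, 36 were no member themselves. Of these, 14 had enough UMIs in all 5 types and 0 passed 0.5 in one direction throughout. Over all cells 4 had a ratio of at least 0.5 in size. Farthest from 0 was Gm41031, 35530 bp from Gm10260, with 79 and 16 UMIs (−2.41, −3.29 to −1.63).

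Other genes of one sign were ranked by the ratio nearest to 0 over the 5 types. Highest were A930015D03Rik (2.49 or more in each type), Poc1a, a centriole protein (2.17 or more), and Tmsb15b1, a thymosin gene on chromosome X (1.93 or more), followed by Rtkn2, Uckl1os, Gm21738, Rnf219, Tgm3, Gm39326 and Zfp943. Lowest were Gm19667, Gm21887, Gm47283, Cox7b, 1190007I07Rik, Rpl29, Abhd14a, Magt1, Aste1 and Hddc3. In these orders Abcd4 took place 6 of the higher genes and Gm10260 place 6 of the lower ones. Among the members, nearest to the bound of 0.5 on the inside were Gm10800 in AC (0.55) and Kcnj14 in BC (−0.57), and on the outside was Gm10801 in AC (0.48).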

How the data were processed

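The members and gene lists were chosen with earlier results of these data known. 10x Genomics 3′ v3.1 libraries were aligned by the authors to mm10 with Cell Ranger 7.0.1, and cells were filtered and clustered in Seurat. The deposited table holds raw UMI counts. The deposited cell table holds cell totals as counts, the percent of mitochondrial UMIs, clusters and cell types, the types being used as the authors named them. Whether intronic reads were counted, and the gene annotation, are not given in the sources used here, and how reads matching several genes were assigned is not stated. Another 2 deposited columns were left unused. No doublet caller was run. Groups came from the genotype label.

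UMIs were summed per library and type and scaled to 1000000 (Python 3.11.15, numpy 2.4.6, scipy 1.17.1, pandas 2.3.3). The ratio script was tested on simulated data. With 1 library per genotype no test was run, and the Wilcoxon test over cells used in the study was not repeated. Depth per type and library ran from 1425527 to 14494233 UMIs in the 5 main types. A floor of 3 UMIs was set for a count of 0, which is below the upper limit of the exact Poisson intervals for that count. Names and positions came from GENCODE M21 (GRCm38), in which 25130 of 25778 symbols matched one gene. Transcripts were compared with BLAST+ 2.17.0. TMM factors came from edgeR 4.0.16. Named genes were the members, Ptbp1 and the sex-linked genes, the 10 other genes per direction with the largest smallest ratio over 5 types, 3 neighbours per side, the 3 most similar profiles over clusters, the fixed lists (vitamin B12 and ABCD, IRAK and Toll-like receptor, Kcnj, snoRNA hosts, nuclear RNAs, sequence copies), rod genes and markers. Of the nuclear RNAs, taken as a sign of RNA quality, 3 of 6 had enough UMIs in all types and none passed 0.5 throughout, while Malat1 had a ratio of 0.23 over all cells. Some results on other genes are not reported here.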

Additional observations from a re-analysis of the deposited data

Results flagged for a closer look

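Kcnj14 in RGC had the opposite sign to the 5 types that chose it. Its level was 75.1 CPM (42.9 to 122) in Ptbp1-Ctrl, on 16 UMIs, and 152 CPM (101 to 220.4) in Ptbp1-KO, on 28 UMIs. The log2 ratio was 1.02 (0.09 to 2.01), against −0.59 in rods, and the difference between RGC and the other types was not tested. In the same RGC, Gnat1, a rod gene, was at 59.96% of its rod level in Ptbp1-Ctrl and at 92.3% in Ptbp1-KO, and Kcnj14 at 33.8% and 104% of its own rod level. The part of rod RNA in this result was not tested.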

How the results depend on the processing

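Member ratios in the 5 types were recomputed with TMM factors, median-ratio size factors, cells thinned to 1000 UMIs, the mean CPM of cells, mitochondrial UMIs left out, the 5% of cells with most UMIs left out, clusters weighted equally and free RNA subtracted. One more alternative, without the 126 cells whose barcode occurs in both libraries, was chosen after seeing the data. Of 313 values, 270 stayed inside the counting interval, 42 moved outside it with the same sign and 1 reversed, Kcnj14 in MG at 1.84 after subtraction of free RNA. The median over types moved for Gm10800, from 0.90 to 1.05 with thinned cells. Subtraction of free RNA gave no value for Abcd4 and Kcnj14 in cones, and so none for their medians. Members past 0.5 in all 5 types fell from 6 to 3 with free RNA subtracted (Irak1bp1, Snhg3 and Gm10260 were left), to 3 with a minimum of 200 UMIs and to 1, Gm10260, at a log2 ratio of 1. Over all genes, 11 were higher, which became 2 with free RNA subtracted, 19 at a minimum of 20 UMIs, 1 at 200 UMIs, 175 at 1 UMI and 4 at a log2 ratio of 1. The 17 lower genes became 10, 7 at 200 UMIs, 56 at 1 UMI and 7 at a log2 ratio of 1. A higher minimum leaves fewer genes (3029 at 200 UMIs); otherwise the cause was not tested. Median-ratio scaling moved the median of all genes by −0.11 in rods. No paired analysis was possible because each genotype has 1 sample, and for the same reason no replicate could be left out. Few UMIs limit what RGC and HC can show.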

Other observations

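Among the genes that moved alike in the 5 types without being members, several lay together on a chromosome, which was seen after their values were known. Poc1a, Rpl29, Abhd14a, Aste1 and Gm19667 all lie between 105395392 and 106447678 on chromosome 9 of GRCm38. In that interval 10 genes had at least 50 UMIs in each of the 5 types, and these 5 of them passed 0.5 throughout, Poc1a upward and the others downward. Irak1bp1 lies on the same chromosome at 82829540 to 82847687. On chromosome X, Magt1 and Cox7b were the 2 genes with enough UMIs between 105968084 and 106022450, and both were lower. The bounds of both intervals are the outer ends of these same genes, so the counts inside them are no test. Among all 7651 genes with enough UMIs, 0.366% passed 0.5 in one direction throughout.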
